A study of Mus musculus with 8 samples.

Results

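*Agtr2*, the type 2 angiotensin receptor gene, and *Cnr1*, the gene of the type 1 cannabinoid receptor, were followed through the sympathetic ganglia of *Isl1* mutant and control mouse embryos at E11.5 and E14.5. These are 2 of the 14167 gene symbols in the deposited expression tables, and both genes were held by both tables. They were chosen on these same FPKM values (a transcript level scaled to the length of the transcript and to the mapped fragments of the library), since both were lower in the mutant at E11.5 and higher in the mutant at E14.5. Their levels and changes are therefore given as a description, without a test.

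The E11.5 ganglia came from *Wnt1-Cre;Isl1 f/f* embryos (CKO, labelled Isl1-/-) and *Wnt1-Cre;Isl1 +/+* controls (labelled wild type), both on a Rosa26-tdTomato reporter background, so that both groups carried Cre and reporter. *Wnt1-Cre* deletes *Isl1* in the neural crest lineage, from which sympathetic neurons and glia arise, and tissue without fluorescence was removed during dissection. The E14.5 ganglia came from *Isl1 f-neo/f-neo* embryos (hypomorphic, labelled as an *Isl1* mutation), in which the gene is reduced everywhere rather than deleted in 1 lineage, and from wildtype embryos. The mutant allele and the stage therefore differ together and cannot be told apart. Each genotype had 2 libraries, each from ganglia pooled over several embryos, and the authors merged both libraries of a genotype into a single level per gene. The tables give neither the value of a single library nor the read depth, so no difference below was checked against the spread between libraries. *Isl1* itself was lower in both mutants, at 133 FPKM in control and 40.0 FPKM in CKO ganglia and at 162 FPKM in wildtype and 83.1 FPKM in hypomorphic ganglia.

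The type 2 angiotensin receptor and the cannabinoid receptor CB1 are both G protein coupled receptors, proteins that span the membrane and pass an outside signal to G proteins within the cell. Angiotensin II, made from angiotensinogen by renin and the angiotensin converting enzyme, binds the type 1 receptor, which raises blood pressure, and the type 2 receptor, which is abundant in fetal tissue and acts largely through phosphatases and against the type 1 receptor. CB1 is bound by the lipids anandamide and 2-arachidonoylglycerol, couples to Gi/o proteins, and on nerve terminals, sympathetic ones included, lowers transmitter release.

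In the mm9 mouse genome, which the study's methods name, *Agtr2* (ENSMUSG00000068122.3) lies on the plus strand of chromosome X from 21061670 to 21066290. Its transcript Agtr2-001 has 3 exons, 3283 bases in all, and its coding sequence of 1089 bases, 363 residues, sits in 1 exon. *Cnr1* (ENSMUSG00000044288.6) lies on the plus strand of chromosome 4 from 34011568 to 34035806. Its transcripts Cnr1-001 and Cnr1-003 start at different first exons and share the coding sequence of 1419 bases, 473 residues, again in 1 exon. No other gene of the annotation overlaps either gene on either strand, so that no overlapping gene shares their reads.

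The sequences before the start sites of both genes are shown because the 2 genes differed from control alike while the sequences shown differ in base composition. They are the 250 bases before a start site in RefSeq (build GRCm38.p6), chrX:21484374-21484623 for *Agtr2* and chr4:33924394-33924643 for *Cnr1*, both on the plus strand and written 5′ to 3′. In mm9 the *Agtr2* window ends at 21061749, just before another protein coding transcript, Agtr2-201 (393 residues). The end of that window thus overlaps the first exon of Agtr2-001, which starts at 21061670. The *Cnr1* window ends at 34011618, shortly past the start of Cnr1-001 at 34011607. Capitals mark TAAT on either strand, the core that homeodomain proteins such as ISL1 bind, with overlapping matches joined.
Agtr2: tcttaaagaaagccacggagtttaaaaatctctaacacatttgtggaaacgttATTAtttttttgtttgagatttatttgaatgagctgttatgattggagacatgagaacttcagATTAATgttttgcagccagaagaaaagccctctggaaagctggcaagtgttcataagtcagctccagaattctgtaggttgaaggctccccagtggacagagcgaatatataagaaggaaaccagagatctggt
Cnr1: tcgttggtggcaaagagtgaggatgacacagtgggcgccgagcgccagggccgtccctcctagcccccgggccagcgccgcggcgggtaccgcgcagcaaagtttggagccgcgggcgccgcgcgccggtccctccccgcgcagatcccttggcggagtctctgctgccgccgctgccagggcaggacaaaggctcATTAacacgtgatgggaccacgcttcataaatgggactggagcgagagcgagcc
The *Agtr2* promoter was poor in G and C, at 38.4%, and 90.3% of the 32851 RefSeq promoters of this length had a higher GC content. It held 3 CpG, where the median promoter held 6. The *Cnr1* promoter shown was the reverse, with a GC content of 68.8%, above that of 89.0% of promoters, and 28 CpG. Of the other 2 *Cnr1* start sites in RefSeq, one lies upstream with a GC content of 79.2% and one downstream with 49.2%. TAAT, read on both strands, occurred 3 times before *Agtr2* and 1 time in the *Cnr1* sequence shown, and 54.9% of all promoters held it at least once and 17.3% at least 3 times. CANNTG, the E-box core, occurred 2 times before *Agtr2* and 1 time in that *Cnr1* sequence, and 66.2% of promoters held it. GATA was found in neither of these sequences, and 53.6% of promoters held it. The downstream *Cnr1* start site differed from the one shown, with 5 CpG, 2 TAAT, and 2 GATA in the 250 bases before it. These are letter matches in a short window and not measured sites.

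*Agtr2* was among the most abundant transcripts of the ganglia. It was at 583 FPKM in E11.5 control and 219 FPKM in CKO ganglia, and at 202 FPKM in E14.5 wildtype and 348 FPKM in hypomorphic ganglia. The E11.5 control was the highest of the 4 groups and the E14.5 wildtype the lowest, with the CKO value close to the latter, although levels of the 2 stages come from tables that were normalized separately. In CKO ganglia *Agtr2* was 2.66-fold lower, a log2 ratio of -1.41 on the scale of FPKM + 0.1, and in hypomorphic ganglia 1.73-fold higher, a log2 ratio of 0.79. At E11.5, 319 of 13506 genes (2.36%) had a lower log2 ratio than *Agtr2*, and at E14.5, 193 of 13413 genes (1.44%) had a higher one.

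*Cnr1* was at 48.3 FPKM in E11.5 control and 17.9 FPKM in CKO ganglia, and at 56.6 FPKM in E14.5 wildtype and 78.9 FPKM in hypomorphic ganglia. Here the hypomorphic ganglia were the highest group and the CKO ganglia the lowest, and the controls of both stages were close together. *Cnr1* was 2.70-fold lower in CKO ganglia, a log2 ratio of -1.43, which 306 genes (2.27%) exceeded in that direction. In hypomorphic ganglia it was 1.39-fold higher, a log2 ratio of 0.48, which 638 genes (4.76%) exceeded. This E14.5 difference was short of the 1.5-fold by which a gene is counted as changed here. For comparison, 12.9% of all genes were lower by 1.5-fold or more at E11.5 and 18.9% higher, while at E14.5 2.12% were lower and 2.89% higher. Only 0.866% of the 12707 genes held by both tables were at least 1.5-fold lower at E11.5 and at least 1.5-fold higher at E14.5, as *Agtr2* was, and 4.2% passed 1.2-fold both ways, as both genes did. Without small RNA genes these shares were 0.631% and 3.96% of 12529 genes. The shares of all genes given below include the small RNA genes. Since both were picked for this pattern, these shares only place them and add no support.

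**Figure D1:**
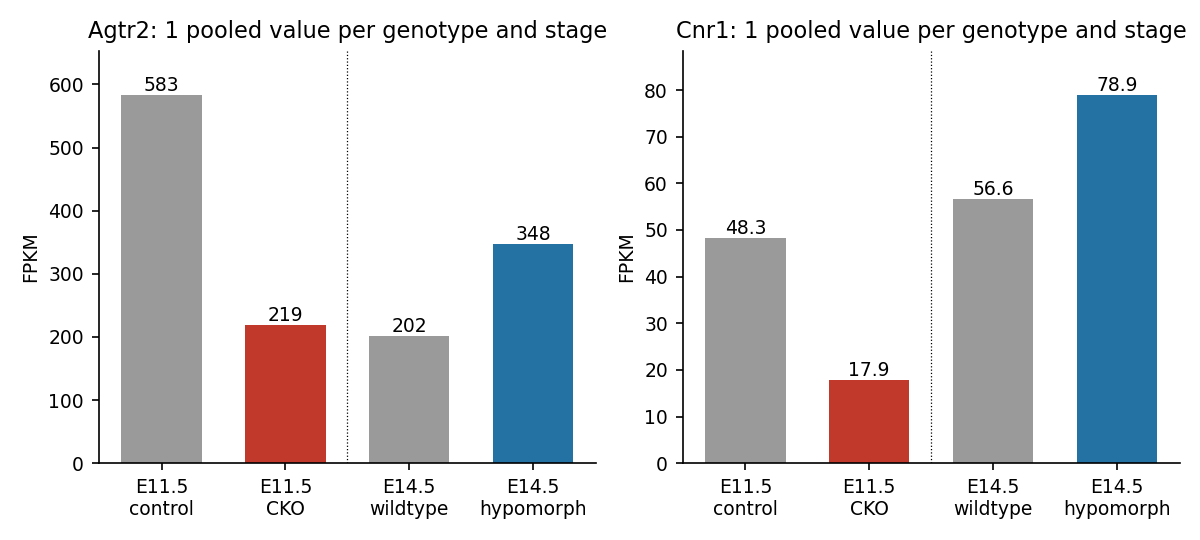
FPKM of *Agtr2* (left) and *Cnr1* (right) in the 4 groups, 1 bar per genotype and stage with its value above it; the dotted line parts the E11.5 from the E14.5 table, which were normalized separately, and there are no error bars because each bar is 1 pooled value. For both genes the CKO bar is under its control (219 against 583 and 17.9 against 48.3 FPKM) and the hypomorphic bar above its wildtype (348 against 202 and 78.9 against 56.6 FPKM).

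The ratio between the 2 receptors differed less between the genotypes of a stage than between stages. *Agtr2* was 12.1-fold above *Cnr1* in E11.5 control and 12.3-fold in CKO ganglia, against 3.56-fold in E14.5 wildtype and 4.41-fold in hypomorphic ganglia, so that it was nearly level at E11.5 and higher in the mutant at E14.5. This ratio is taken within a column and does not depend on the scaling of the tables. Between the control columns of the 2 stages, which were normalized separately, the log2 ratio of E14.5 over E11.5 was -1.53 for *Agtr2* and 0.23 for *Cnr1*. The median of all genes on that scale was 0.24 and that of 16 sympathetic neuron markers 0.94, so that *Agtr2* stood apart from both and *Cnr1* was at the median of all genes.

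The rank of each gene within its column, which needs no scaling between columns, differed in the same direction as its FPKM at each stage. *Agtr2* ranked 113 of 13506 genes in E11.5 control and 351 in CKO ganglia, and 271 of 13413 in E14.5 wildtype and 126 in hypomorphic ganglia. It thus stayed above 97.4% of genes in its lowest place and above 99.2% in its highest. *Cnr1* ranked 1785 in control and 4846 in CKO ganglia, and 1554 in wildtype and 999 in hypomorphic ganglia, above 86.8%, 64.1%, 88.4%, and 92.6% of genes in that order. Both genes were thus well above the 1 FPKM that the tables require in at least 1 genotype, in every column. *Th*, the rate-limiting enzyme of noradrenaline synthesis and a gene that defines these ganglia, ranked 381, 545, 174, and 255, so that *Agtr2* was more abundant than *Th* in 3 of the 4 columns and less abundant in E14.5 wildtype ganglia. In E11.5 control ganglia *Agtr2* was at the level of *Gap43*, a protein of growing axons (585 FPKM), and of *Dbh*, the enzyme that makes noradrenaline (543 FPKM), and *Cnr1* at that of *Chrna3*, a nicotinic receptor subunit of these neurons (48.1 FPKM). In E14.5 wildtype ganglia *Gap43* was at 1235 FPKM and *Dbh* at 608 FPKM, both above *Agtr2*, and *Chrna3* at 84.2 FPKM, above *Cnr1*.

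**Figure D2:**
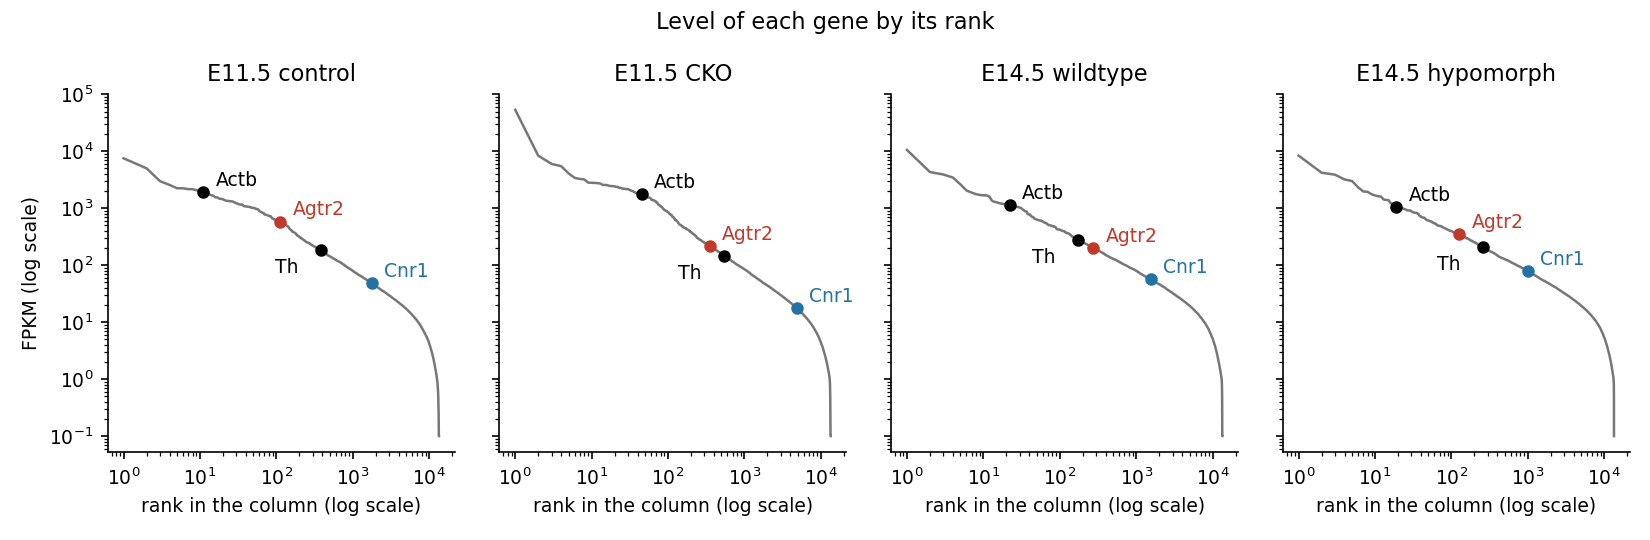
FPKM against rank for all genes of each column (grey line, both axes on a log scale, values under 0.1 drawn at 0.1), with *Agtr2* (red), *Cnr1* (blue), and, in black, *Th* and the actin gene *Actb* for orientation. *Agtr2* lies to the left of *Th* in each panel except E14.5 wildtype, and *Cnr1* moves furthest right in CKO ganglia, to rank 4846.

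Among the receptors of their own class, *Agtr2* was the most abundant in every column and *Cnr1* moved through the upper ranks. Of a list of 252 G protein coupled receptors, 106 were held by the E11.5 and 101 by the E14.5 table. In E11.5 control ganglia *Agtr2* made up 39.5% of the summed FPKM of these receptors, in CKO ganglia 15.8%, in E14.5 wildtype ganglia 12.8%, and in hypomorphic ganglia 19.9%. The next most abundant at E11.5 was *Ednrb*, the endothelin B receptor of neural crest and glia, which was 6.48-fold under *Agtr2* in control ganglia (90.0 FPKM) and 1.09-fold under it in CKO ganglia (200 FPKM). At E14.5 *Cxcr4*, a chemokine receptor, came next, at 126 FPKM in wildtype ganglia, followed by *Gabbr1*, a subunit of the GABA B receptor, at 101 FPKM, *Ednrb* at 85.2 FPKM, and *Lphn1*, a latrophilin, at 67.6 FPKM. *Cnr1* was in place 3 of the listed receptors in E11.5 control ganglia and in place 18 in CKO ganglia, and in place 7 and 5 in E14.5 wildtype and hypomorphic ganglia. It made up 3.27%, 1.29%, 3.59%, and 4.53% of the receptor sum in those 4 columns.

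**Figure D3:**
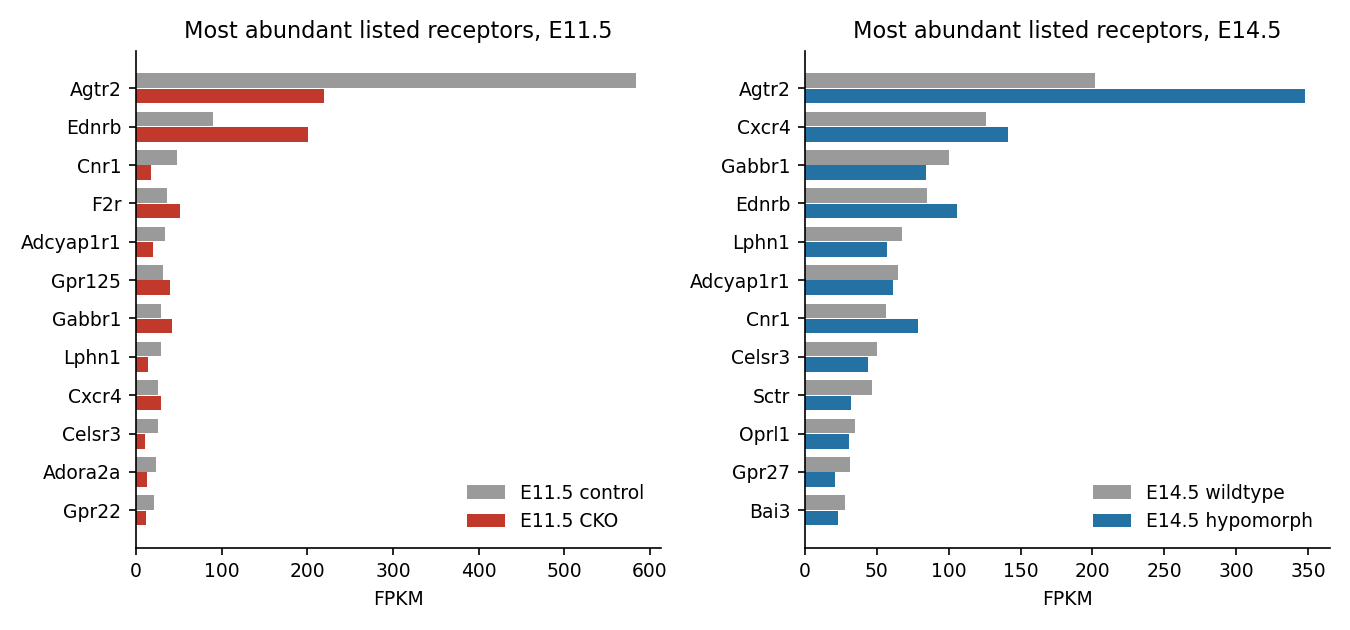
FPKM of the 12 most abundant listed G protein coupled receptors of each control column at E11.5 (left) and E14.5 (right), with the control in grey and the mutant in colour, 1 pooled value per bar. *Agtr2* leads both panels, and the gap to *Ednrb* at E11.5 narrows from 583 against 90.0 FPKM in control to 219 against 200 FPKM in CKO ganglia.

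Most receptors did not share this pattern. At E11.5, 14 of the 106 listed receptors, *Agtr2* and *Cnr1* included, were at least 1.5-fold lower in CKO ganglia (13.2%, against 12.9% of all genes) and 52 higher (49.1%, against 18.9%). The median log2 ratio of the list was 0.58, where that of all genes was 0.05. With FPKM rescaled so that both genotypes had the same sum without erythroid genes, the counts were 19 lower and 45 higher. A gene under 1 FPKM in control ganglia is held only if it is higher in CKO ganglia. The filter thus set the direction of some receptors, whose control levels went down to 0.261 FPKM. Among the 57 receptors at 5 FPKM or more in either genotype, 8 were lower and 23 higher. The share of all genes at that level was not computed. Of the other 3 among the 5 most abundant in control ganglia, *Adcyap1r1*, the PACAP receptor, was lower (34.1 FPKM in control and 20.0 FPKM in CKO ganglia, log2 ratio -0.76), *Ednrb* was higher (log2 ratio 1.15), and *F2r*, a thrombin receptor, was under 1.5-fold (36.3 and 51.3 FPKM).

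At E14.5, 8 of the 101 receptors were lower in hypomorphic ganglia (7.92%, against 2.12% of all genes) and 6 higher (5.94%, against 2.89%), with a median log2 ratio of 0.06. The 6 include *Agtr2*, which was chosen for being higher. Most of the changed receptors were at low levels. Among the 58 at 5 FPKM or more in either genotype, 2 were lower and 2 higher, *Agtr2* included, and the share of all genes at that level was not computed. Of 87 receptors held by both tables, 6 were at least 1.2-fold lower in CKO and 1.2-fold higher in hypomorphic ganglia. This was 6.90%, against 4.2% of all genes, and 6 receptors went the other way. Without *Agtr2* and *Cnr1*, which were chosen for this pattern, 4 of 85 (4.71%) were lower and then higher, near the share of all genes. Those 4 were *Gpr123*, *Mc4r*, a melanocortin receptor, *Gpr1*, and *Htr1b*, a serotonin receptor. None of those 4 was above 6 FPKM in any column, the highest being *Gpr123* at 5.51 FPKM in hypomorphic ganglia, so that *Agtr2* and *Cnr1* were the abundant receptors of this group.

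The composition of the dissected tissue moved with the genotype as well, and in bulk ganglia fewer cells of a type and less RNA per cell cannot be told apart. All 16 sympathetic neuron markers were held by both tables, with E11.5 control levels from 35.0 to 658 FPKM. Their median log2 ratio was -0.35 at E11.5 (4 of 16 at least 1.5-fold lower, 25.0% against 12.9% of all genes, and 0 higher) and -0.23 at E14.5 (1 of 16 lower, 0 higher). *Agtr2* and *Cnr1* were thus further below their control at E11.5 than the neuron markers were at the median, and at E14.5 on the opposite side of it. Single neuron genes reached as far, with log2 ratios at E11.5 of -1.70 for *Slc6a2*, the noradrenaline transporter, and -1.87 for *Elavl3*, an RNA binding protein of neurons. Of 15 pan-neuronal markers, 6 were at least 1.5-fold lower at E11.5, with a median log2 ratio of -0.46 (-0.27 at E14.5). At 1.2-fold, 3 were lower at E11.5 and higher at E14.5 (20.0%, against 4.2% of all genes), and 1, *Prph*, went the other way (0.53 and -0.50). Of the 16 sympathetic neuron markers, 0 had this pattern and 1, again *Prph*, went the other way. The 3 pan-neuronal markers were *Snap25*, a protein of transmitter release, whose log2 ratios of -1.47 and 0.50 were close to those of *Cnr1*, and the neurofilament genes *Nefm* (-1.52 and 0.33) and *Nefl* (-0.99 and 0.27). *Slc6a2*, *Elavl3*, *Snap25*, and *Prph* were named after their values were seen. On a log2 scale relative to the mean of the sympathetic neuron markers, *Agtr2* was at 1.70 in control and 0.70 in CKO ganglia and at -0.60 in wildtype and 0.37 in hypomorphic ganglia. *Cnr1* on that scale was at -1.90 and -2.92, and at -2.44 and -1.77. Both genes kept the direction of each difference when read this way.

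Markers of several other cell types were at higher sums in CKO ganglia, where 18.9% of all genes were higher. The sum over all genes was higher there too, at 476289 FPKM in control and 617263 FPKM in CKO ganglia. Of the neural crest and glial markers, 9 of 12 were at least 1.5-fold higher at E11.5 and 1 lower, with summed FPKM of 353 in control and 666 in CKO ganglia. Of the mesenchyme markers, 9 of 14 were higher and 0 lower (797 and 1356 FPKM), of the endothelial markers 2 of 10, a share near that of all genes (81.1 and 106 FPKM), of the skeletal muscle markers 3 of 8 (191 and 303 FPKM), and of the erythroid genes 10 of 11 (10887 and 69070 FPKM), with the globin gene *Hbb-y* listed at 0 in CKO ganglia. Rescaling without erythroid genes lowered the median log2 ratio of the endothelial list from 0.42 to 0.19 and that of the mesenchyme list from 0.75 to 0.51. All 7 trophoblast and yolk sac markers held by that table were higher (5.40 and 159 FPKM), and 5 of the 12 listed were not held. Control levels of the 7 went down to 0.03 FPKM, and markers under 1 FPKM in control ganglia could be held only as higher. At E14.5 the sums of these lists were closer, at 681 and 700 FPKM for crest and glia, 1623 and 1810 FPKM for mesenchyme, 109 and 151 FPKM for endothelium, 283 and 260 FPKM for muscle, 5639 and 6855 FPKM for erythroid genes, and 16.8 and 23.9 FPKM for trophoblast and yolk sac. The endothelial markers had a median log2 ratio of 0.46 at E14.5, near the 0.48 of *Cnr1*, with all 10 above 0. Each of the lists of chromaffin and adrenal cortex, kidney and mesonephros, and sensory neuron markers summed to at most 87.6 FPKM in any column, which the sensory list reached in hypomorphic ganglia with 72.3 FPKM from *Tlx3*. The part of these cells in the values of *Agtr2* and *Cnr1* was not tested.

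Within the renin-angiotensin system, *Agtr2* was the only listed gene at least 1.5-fold lower in CKO ganglia and the only one at least 1.5-fold higher in hypomorphic ganglia. Of 24 genes, 17 were held by the E11.5 table, with 1 lower and 6 higher in CKO ganglia (5.88% and 35.3%, against 12.9% and 18.9% of all genes). This split depended on the scaling, with 4 lower and 5 higher after centring on the median of all genes and 4 lower and 3 higher after rescaling without erythroid genes, a scaling that moved the median of all genes from 0.05 to -0.18. The type 1 receptor *Agtr1a* went against *Agtr2*, at 2.15 FPKM in control and 9.79 FPKM in CKO ganglia, a log2 ratio of 2.14. *Agtr2* was still the more abundant of the 2 receptors in both.

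The other 5 that were higher in CKO ganglia at E11.5 were all under 10 FPKM. *Agtrap*, a protein that binds the type 1 receptor, was at 1.06 and 2.19 FPKM (log2 ratio 0.99), and *Ptpn6*, the phosphatase SHP-1 linked to type 2 receptor signals, at 1.93 and 3.98 FPKM (1.01). The peptidases *Anpep* (4.67 and 7.76 FPKM, 0.72), *Enpep* (0.995 and 1.66 FPKM, 0.68), and *Mme* (5.56 and 8.44 FPKM, 0.59), which cut angiotensin peptides, completed the group. Under 1 FPKM in control ganglia, *Enpep* could be held only as higher. The converting enzyme *Ace* was at 2.85 and 1.92 FPKM, a log2 ratio of -0.55, and *Mtus1*, which binds the type 2 receptor, at 13.2 and 8.82 FPKM, a log2 ratio of -0.57, both short of 1.5-fold, as was the peptidase *Nln* (15.8 and 10.9 FPKM, log2 ratio -0.53).

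At E14.5, 16 of the 24 genes were held, with *Agtr2* higher and *Cma1*, the mast cell chymase, lower (1.07 and 0.605 FPKM, log2 ratio -0.74). Each was 1 of 16 (6.25%), against 2.89% of all genes higher and 2.12% lower, and *Agtr2* was chosen for being higher. Under 1 FPKM in hypomorphic ganglia, *Cma1* could be held only as lower. *Agtr1a* was at 5.06 FPKM in wildtype and 5.47 FPKM in hypomorphic ganglia, a log2 ratio of 0.11. After *Agtr2* the most abundant genes of the list in wildtype ganglia were *Atp6ap2*, the prorenin receptor (51.7 and 49.3 FPKM), and the peptidases *Prep* (50.8 and 45.4 FPKM) and *Thop1* (28.2 and 25.2 FPKM), none of which passed 1.5-fold. The genes of the precursor and of renin, *Agt*, *Ren1*, and *Ren2*, as well as *Agtr1b* and *Mas1*, were in neither table, which hold only genes at 1 FPKM or more in a genotype. The transcript of the type 2 receptor was thus at 202 FPKM or more in ganglia whose tables do not list the precursor of its ligand.

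**Figure D4:**
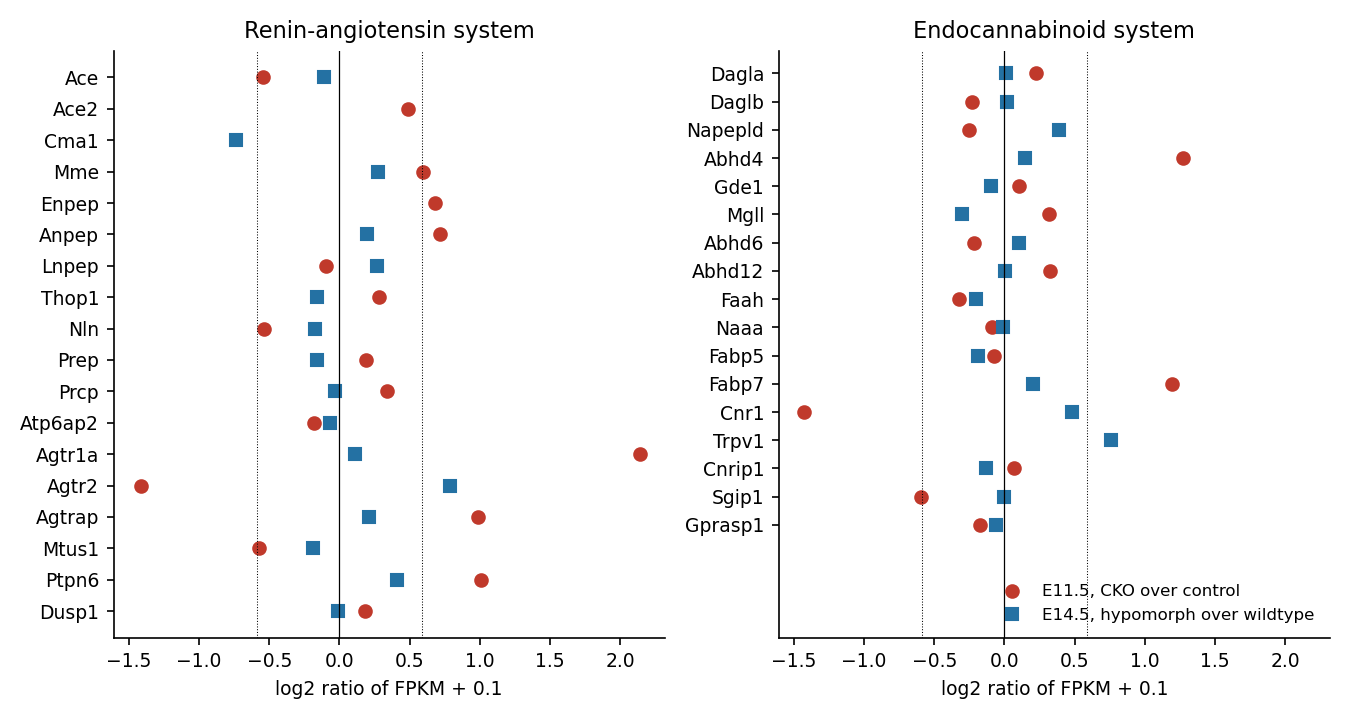
Log2 ratio of mutant over control for each gene of the renin-angiotensin (left) and endocannabinoid (right) lists held by a table, at E11.5 (red circles) and E14.5 (blue squares), with dotted lines at 1.5-fold; a missing mark means that the table does not hold the gene. *Agtr2* (-1.41 and 0.79) and *Cnr1* (-1.43 and 0.48) are the marks furthest to the left at E11.5 in their panels, and their E14.5 marks are on the other side of 0.

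Within the endocannabinoid system *Cnr1* was likewise the gene with the lowest log2 ratio at E11.5. Of 20 genes, 16 were held, with 2 lower and 2 higher in CKO ganglia (12.5% each, against 12.9% and 18.9% of all genes), so that the list as a whole did not hold a larger share of changed genes than the table. Beside *Cnr1*, *Sgip1*, which binds CB1 and slows its uptake from the membrane, was lower, at 8.87 FPKM in control and 5.85 FPKM in CKO ganglia, a log2 ratio of -0.59. *Abhd4*, a hydrolase of the anandamide pathway, was higher (18.5 and 44.8 FPKM, log2 ratio 1.27), as was *Fabp7*, a fatty acid binding protein of glia that also stands on the crest and glial list (90.9 and 208 FPKM, 1.19). The most abundant gene of the list, *Fabp5*, was at 346 and 329 FPKM, and *Gprasp1*, which sorts receptors after their uptake, at 53.5 and 47.5 FPKM, close to *Cnr1* in control ganglia.

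The enzymes that make and break down the ligands of CB1 did not pass 1.5-fold at either stage, apart from *Abhd4* at E11.5. *Dagla*, which makes 2-arachidonoylglycerol, was at 4.91 and 5.76 FPKM at E11.5 and at 7.14 and 7.20 FPKM at E14.5. *Mgll*, which degrades it, was at 2.26 and 2.83 FPKM and at 8.27 and 6.67 FPKM, and *Faah*, which degrades anandamide, at 4.14 and 3.29 FPKM and at 8.72 and 7.58 FPKM. At E14.5, 17 of 20 genes were held, with 0 lower and 1 higher (0% and 5.88%, against 2.12% and 2.89% of all genes). The higher gene was the cation channel gene *Trpv1*, at 0.559 FPKM in wildtype and 1.01 FPKM in hypomorphic ganglia (log2 ratio 0.76). Under 1 FPKM in wildtype ganglia, *Trpv1* could be held only as higher, so the filter set its direction. Among the 14 genes at 5 FPKM or more in either genotype, 0 were lower and 0 higher. The median log2 ratio of the list was -0.08 at E11.5 and 0.00 at E14.5, and *Cnr2*, the gene of the type 2 cannabinoid receptor, was in neither table.

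The G proteins, regulators, and effectors that Gi/o coupled receptors such as CB1 use held members that changed in both directions. Of 55 genes, 42 were held at E11.5, with 5 lower and 7 higher (11.9% and 16.7%, against 12.9% and 18.9% of all genes), or 9 lower and 5 higher after rescaling without erythroid genes. At E14.5, 45 were held, with 2 lower and 3 higher (4.44% and 6.67%, against 2.12% and 2.89% of all genes). Among the 38 at 5 FPKM or more in either genotype, 2 were lower and 2 higher. The abundant G protein subunits did not pass 1.5-fold at E11.5, with *Gnb1* at 284 and 230 FPKM, *Gnb2* at 219 and 236 FPKM, *Gnai3* at 139 and 147 FPKM, *Gnai2* at 118 and 160 FPKM, and *Gnao1*, the neuronal Go subunit, at 50.5 and 41.6 FPKM. The exception among them was *Gng5* (234 and 378 FPKM, log2 ratio 0.69). *Rgs4*, a regulator that speeds the return of G proteins to rest, was at 153 and 191 FPKM at E11.5 and at 306 and 188 FPKM at E14.5, a log2 ratio of -0.70.

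Of the 42 genes of this list held by both tables, *Rgs5* alone was at least 1.5-fold lower in CKO and higher in hypomorphic ganglia, as *Agtr2* was. This was 2.38% of the list, against 0.866% of all genes. *Rgs5*, another regulator of this family, was at 20.2 FPKM in control and 6.30 FPKM in CKO ganglia and at 14.1 FPKM in wildtype and 31.0 FPKM in hypomorphic ganglia (log2 ratios -1.67 and 1.13). With 1.2-fold, *Rgs9* (log2 ratios -1.15 and 0.27) passed as well, which made 2 of 42 (4.76%), near the 4.2% of all genes. *Rgs5* and *Rgs9*, like *Ace*, *Dagla*, *Mgll*, and *Faah* above, fall outside the rule by which genes were named and were picked after their values were seen.

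Over the 2 log2 ratios, one of each stage, the genes nearest to *Agtr2* were *Clhc1*, *Gem*, a small GTPase that acts on calcium channels, *Clspn*, a checkpoint protein of DNA replication, *Rrm2*, a subunit of ribonucleotide reductase, and *Uhrf1*, which binds hemimethylated DNA. Their distances on the log2 scale ran from 0.03 to 0.12. *Rrm2*, the most abundant of the 5, was at 192 and 77.0 FPKM at E11.5 and at 54.4 and 89.3 FPKM at E14.5. The nearest to *Cnr1* were *Fanca*, a DNA repair gene, *Wdr62*, *Spag5*, and *Aspm*, proteins of the spindle poles, and *Atad5*, which unloads the replication clamp, at distances from 0.01 to 0.05. *Aspm* was at 19.3 and 7.32 FPKM at E11.5 and at 10.0 and 14.2 FPKM at E14.5. The distance between *Agtr2* and *Cnr1* themselves was 0.31, and of 9848 genes with a mean of 5 FPKM or more, 62 were nearer to *Cnr1* than *Agtr2* was and 32 nearer to *Agtr2* than *Cnr1* was. The likeness rests on 2 values per gene.

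**Figure D5:**
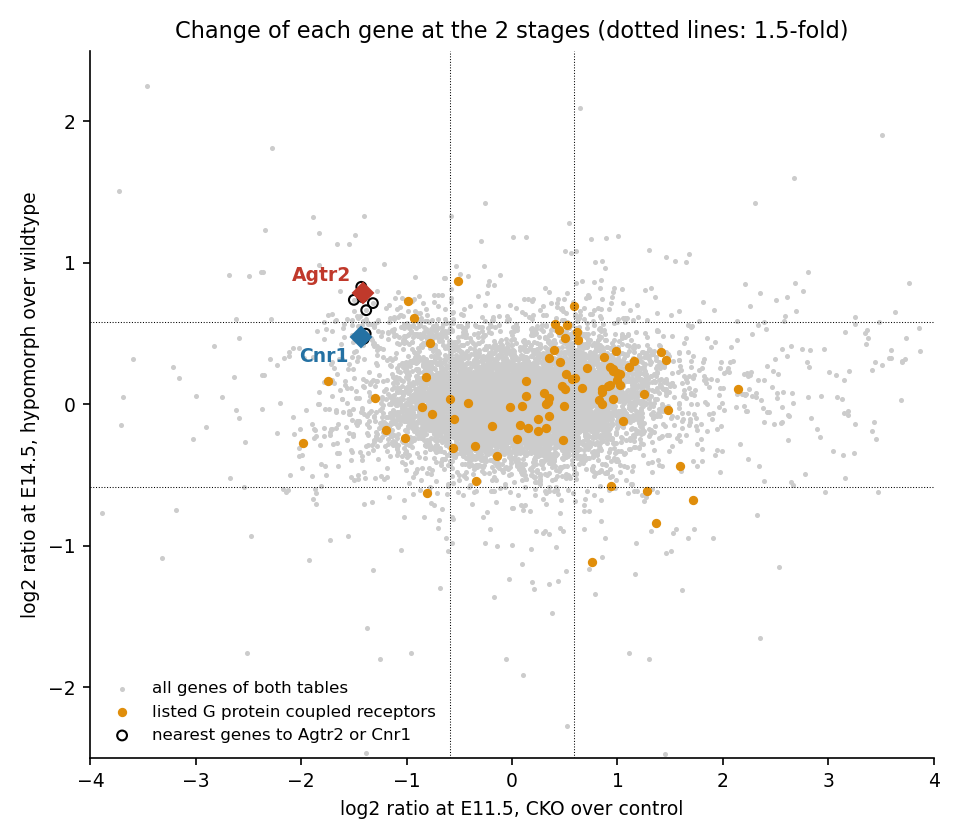
Log2 ratio at E14.5 (hypomorph over wildtype) against that at E11.5 (CKO over control) for 12591 genes of both tables (grey; 116 genes outside the axes are not drawn), with 87 listed receptors in orange, the 10 nearest genes as open circles, *Agtr2* and *Cnr1* as diamonds, and dotted lines at 1.5-fold. *Agtr2* lies in the upper left field (-1.41, 0.79), which 3 of the 87 receptors reach, *Agtr2* included (3.45%, against 0.866% of all genes). Without *Agtr2* and *Cnr1*, which were chosen for this pattern, 2 of 85 receptors reach it (2.35%, against 0.858% of all genes without them). *Cnr1* (-1.43, 0.48) lies just under the edge of that field.

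The study lists *Agtr2* among genes enriched in cholinergic sympathetic neurons and *Cnr1* among those enriched in noradrenergic ones. The 2 receptors thus come from opposite lists but differed from control in the same direction at each stage. Of 41 cholinergic genes held by both tables, 4 were at least 1.5-fold lower in CKO and higher in hypomorphic ganglia (9.76%, against 0.866% of all genes), namely *Agtr2*, *Shox2*, *Tlx3*, and *Vip*, and 1 went the other way. Without *Agtr2*, which was chosen for this pattern, they were 3 of 40 (7.50%). *Vip*, a neuropeptide of cholinergic sympathetic neurons, was at 26.9 and 7.18 FPKM at E11.5 and at 18.0 and 45.3 FPKM at E14.5, and *Tlx3*, a homeodomain factor, at 49.5 and 16.9 FPKM and at 32.8 and 72.3 FPKM. In E11.5 control ganglia *Agtr2* was the most abundant gene of the cholinergic list.

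Of 38 noradrenergic genes held by both tables, 0 passed 1.5-fold in this way and 2 the other way. With 1.2-fold the shares of the lists were close, at 4 of 38 noradrenergic genes (10.5%), namely *Cnr1*, *Npy*, *Dlk1*, and *Rgs9*, and 5 of 41 cholinergic genes (12.2%), against 4.2% of all genes, while 2 noradrenergic and 5 cholinergic genes went the other way. Without *Cnr1* and *Agtr2*, which were chosen for this pattern, the shares were 3 of 37 (8.11%) and 4 of 40 (10%). *Npy*, the neuropeptide of noradrenergic neurons, was at 123 and 81.6 FPKM at E11.5 and at 395 and 505 FPKM at E14.5. *Cnr1* differed more from control at E11.5 than *Npy* (log2 ratio -0.59) and *Dlk1* (-0.57) did, and by a like amount at E14.5 (0.48, against 0.36 and 0.42). At E14.5, 7 of 42 cholinergic genes, *Agtr2* among them, were higher and 1 lower (16.7% and 2.38%), and 9 of 40 noradrenergic genes were lower and 2 higher (22.5% and 5%), against 2.12% of all genes lower and 2.89% higher. At E11.5, 10 of 41 cholinergic genes, *Agtr2* among them, were lower and 9 higher (24.39% and 21.95%). Of 39 noradrenergic genes, 10 were lower, *Cnr1* among them, and 9 higher (25.64% and 23.08%). Of all genes, 12.9% were lower and 18.9% higher at that stage. The median log2 ratio was 0.05 at E11.5 and 0.02 at E14.5 for the cholinergic list and 0.13 and -0.01 for the noradrenergic list. The genes of both lists named here beside *Agtr2* and *Cnr1* were picked after their values were seen, and the lists come from the study itself.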

How the data were processed

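Polyadenylated RNA of dissected sympathetic ganglia was sequenced in 8 libraries, 2 per genotype and stage. The authors aligned reads to mm9 with TopHat, computed FPKM with cuffdiff, and deposited 1 combined FPKM value per gene and genotype, for genes at 1 FPKM or more in either genotype. The labels instead list Cuffdiff 1.3.0, TopHat 1.3.1, Bowtie, and the fly build dm3. The deposited tables also hold log2 fold changes and p-values of the authors' own comparison, which were not used. They give no read numbers, so the depth per library is unknown, and 0 columns belong to other samples.

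Log2 ratios of mutant over control were computed with a pseudocount of 0.1 added to FPKM, which understates the change of low genes, and a gene counted as changed at 1.5-fold. Symbols turned into spreadsheet dates (22 and 23 per table) kept their rank but were not matched between tables. Nearest genes were found by Euclidean distance over the log2 ratios of both stages, among genes with a mean of 5 FPKM or more, without small RNA genes. No test was possible. The 2 genes, the lists, and the alternatives were chosen with earlier results of these data known.

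Genes were named when they were the 2 receptors, *Isl1*, listed reference genes, among the 5 nearest, among the 5 most abundant of a list in a control column or, for both pathways, past 1.5-fold, or were receptors past 1.2-fold down and then up. Gene positions came from GENCODE vM1 on mm9, and promoters from RefSeq on GRCm38.p6, matched by symbol for both genes. Of the markers named in the lists, values are given as sums. Steps were tested on simulated data. Python 3.11.15, numpy 2.4.6, pandas 2.3.3, and matplotlib 3.10.9 were used.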

Additional observations from a re-analysis of the deposited data

How the results depend on the processing

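The differences of *Agtr2* and *Cnr1* kept their direction, and moved by less than 1.5-fold, under each of 6 alternatives, a pseudocount of 1 or none, centring on the median of all genes, rescaling without erythroid genes or to the same upper quartile, and values relative to the sympathetic neuron markers. The log2 ratio of *Agtr2* ran from -1.65 to -1.06 at E11.5 and from 0.78 to 1.02 at E14.5, and that of *Cnr1* from -1.66 to -1.08 and from 0.47 to 0.71. *Cnr1* passed 1.5-fold at E14.5 only relative to the sympathetic neuron markers. Percentiles moved by under 5 points, except that *Cnr1* in CKO ganglia stood above 52.8% of genes when only those at 5 FPKM or more in either genotype were kept. With the log2 ratio of both control columns as an added coordinate, 0 of the 5 nearest genes of either receptor were shared with those named above. The nearest to *Agtr2* were then *Depdc1b*, *Hmmr*, *Smc2*, *Sgol2*, and *Kif11*, and to *Cnr1* *Hjurp*, *Camkv*, *Cit*, *Tonsl*, and *Rgs9*.

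Counts of listed genes depended on the threshold. With 2-fold, the renin-angiotensin list had 2 genes higher at E11.5 and 0 lower and 0 higher at E14.5, the endocannabinoid list 1 lower at E11.5 and 0 higher at E14.5, the Gi/o list 3 lower and 1 higher at E11.5 and 0 lower at E14.5, and the receptors 7 lower and 29 higher at E11.5 and 2 lower and 1 higher at E14.5. With 1.2-fold, the renin-angiotensin list had 4 lower at E11.5 and 4 higher at E14.5, the endocannabinoid list 4 higher at E11.5 and 1 lower and 3 higher at E14.5, the Gi/o list 12 lower and 16 higher at E11.5 and 8 lower and 6 higher at E14.5, and the receptors 17 lower and 25 higher at E14.5. With a pseudocount of 1, the renin-angiotensin list had 0 lower at E14.5, the endocannabinoid list 1 lower at E11.5 and 0 higher at E14.5, the Gi/o list 1 lower and 1 higher at E14.5, and the receptors 3 lower and 2 higher at E14.5. With genes at 5 FPKM or more, the renin-angiotensin list had 3 higher at E11.5 and 0 lower at E14.5, the endocannabinoid list 0 higher at E14.5, the Gi/o list 4 higher at E11.5, and the receptors 8 lower and 23 higher at E11.5 and 2 lower and 2 higher at E14.5. Centring gave 4 renin-angiotensin genes lower at E11.5, and rescaling without erythroid genes 4 lower and 3 higher, with 9 lower on the Gi/o list. Of all genes, 652 were lower and 1137 higher by 2-fold at E11.5, and 105 and 131 at E14.5. With 1.2-fold the counts were 3711 and 4697, and 1209 and 1638. Rescaled, 3036 were lower and 1648 higher at E11.5, and with a pseudocount of 1, 188 and 217 at E14.5. Lower at E11.5 and then higher at E14.5 were 29 genes by 2-fold, 534 by 1.2-fold, and 71 with a pseudocount of 1. The fold threshold, the minimum, and the pseudocount change these counts by construction.

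No paired analysis was possible because the columns hold no value per library, and no replicate was left out for want of such values. The tables give no read numbers, so what depth limits is unknown.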
